A study of Mus musculus with 12 samples.

Results

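Potassium channel genes were taken as every gene whose symbol begins with Kcn, and their chromatin was followed through all peaks that the deposited annotation assigns to such a gene. Of 281974 ATAC-seq peaks in 3 tables, 1850 peaks of 96 genes were members. There were 339 members of 74 genes among 91770 microglia peaks, 1084 of 93 genes among 107627 NeuN+ peaks, and 427 of 71 genes among 82577 Olig2+ peaks. Peaks within 1000 bp of the annotated transcription start site are called start-site peaks (90, 155 and 65 in that order) and the others distal peaks (249, 929 and 362). The members were chosen by gene name and not by any measured value. The assignment is to the nearest start site: of the distal members, 50.6% (microglia), 56.8% (NeuN+) and 43.1% (Olig2+) lay within the gene they were assigned to.

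ATAC-seq marks open DNA by the insertion of sequencing adapters with a transposase. All libraries came from forebrain of C57BL/6 mice aged 4 months, either wild type (WT) or SgshKO, the label for loss of Sgsh, which encodes a lysosomal enzyme that degrades heparan sulfate. Microglia, the resident macrophages of brain, were sorted as live cells that were CD11b+, CX3CR1+ and low for CD45. The other 2 sorts were lightly fixed nuclei, either positive for the neuronal protein NeuN and negative for PU.1 and OLIG2, or positive for the oligodendrocyte-lineage protein OLIG2 and negative for PU.1 and NEUN. Each of the 6 groups had 2 libraries. Whether 2 libraries of a group came from different animals is not stated, so the p-values measure the spread between these libraries, which may be technical. The living microglia and the fixed nuclei were prepared differently, so that preparation and cell type cannot be told apart in any comparison between them.

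Potassium channels let potassium ions leave a cell and so hold the resting membrane potential and end the action potential. The voltage-gated pore genes include the Kcna, Kcnb, Kcnc, Kcnd, Kcnh and Kcnq groups. Inward rectifiers (Kcnj), 2-pore leak channels (Kcnk) and calcium- or sodium-activated channels (Kcnn, Kcnma1, Kcnt) set excitability in other ways, and auxiliary subunits (Kcnab, Kcne, Kcnip, Kcnmb) and silent subunits (Kcnf, Kcng, Kcns, Kcnv) modify the pores. Neurons use a wide set of them, oligodendrocyte-lineage cells and astrocytes clear potassium through Kir4.1 (Kcnj10), and microglia are known for the leak channel THIK-1 (Kcnk13), Kv1.3 (Kcna3) and KCa3.1 (Kcnn4).

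The tags per peak in a library are scaled to 10000000 tags in all, and every level below is on that scale. The microglia libraries had 10771659 to 11804222 tags, the NeuN+ libraries 14326703 to 17706971 and the Olig2+ libraries 15044194 to 19555924, and a median peak held 17 to 39 reads. Peaks took up 55.8% and 48.7% of the tags of WT microglia and 67.4% and 53.7% of SgshKO microglia, 26.7% and 25.9% against 21.5% and 21.2% in NeuN+ nuclei, and 30.9% to 31.8% in the Olig2+ libraries. Summed over start-site peaks of 8 neuron marker genes, NeuN+ nuclei held 940 and 878 tags in WT and 503 and 502 in SgshKO, while the 5 astrocyte, 4 endothelial and 5 blood myeloid markers had no start-site peak there. Other markers were lower in SgshKO NeuN+ nuclei as well, with 179 and 155 against 85.9 and 88.3 tags at 4 of 9 oligodendrocyte markers, 54.4 and 48 against 34.2 and 32.4 at 1 of 8 microglia markers, and 21 and 20.3 against 11.2 and 17.1 at 1 of 2 oligodendrocyte precursor markers. Olig2+ nuclei held 3544 and 3501 tags at 9 oligodendrocyte markers in WT and 2893 and 2890 in SgshKO, and 255 and 287 against 335 and 323 at the 4 of 8 neuron markers with a peak. They also held 240.2 and 233 against 271 and 284 tags at 2 of 8 microglia markers, 58.1 and 56.3 against 69.5 and 67.1 at both precursor markers and 9.34 and 8.18 against 6.15 and 5.98 at 1 of 5 astrocyte markers, with no peak at endothelial or blood myeloid markers. Microglia held 2303 and 2046 tags at 7 of 8 microglia markers in WT and 2549 and 1937 in SgshKO, 340 and 308 against 418 and 356 at 5 of 9 oligodendrocyte markers, 114 and 74.5 against 75.3 and 64.1 at 2 of 5 astrocyte markers, and 184 and 158 against 160 and 104 at 2 of 4 endothelial markers. There, 1 of 2 precursor markers had 108 and 78.8 against 52 and 48.3 tags, and 1 of 5 blood myeloid markers 18.2 and 22 against 22.5 and 9.28. The neuron markers had 46.7 and 49.98 tags in WT and 72.7 and 56.6 in SgshKO microglia, where Rbfox3, Syt1, Snap25, Gad1, Gad2 and Map2 had no start-site peak. The part of these marker levels in the results below was not tested. In a sort, a different mix of nuclei and a different accessibility per nucleus cannot be told apart. The Sgsh start site itself, at chr11:119355403-119355637 in the Olig2+ table, had 65.9 and 74.2 tags in WT and 60.9 and 69.1 in SgshKO there (adjusted p = 0.653). In NeuN+ nuclei it fell from 34.5 and 22.6 to 9.07 and 13.3 (log2 change -1.27 ± 0.28 (SE), adjusted p = 0.00256), and in microglia it had 184 and 162 against 257 and 260 (adjusted p = 0.196). As an accessibility value it does not check the genotype.

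The DNA just before the start site is shown for 4 channel genes whose start-site peaks the results turn on: Kcna3 and Kcnn1, whose genotype changes ran in opposite directions in different sorts, Kcnn4, which rose in microglia, and Kcnj10, which fell in Olig2+ nuclei. Each is the 250 bases upstream of an annotated RefSeq start (GRCm38.p6, the assembly also named mm10), 5′ to 3′ on the strand of the gene. Capitals mark matches to any of 9 motifs searched on both strands: CACGTG and GTCACGTG (bound by MITF, TFEB and TFE3), GAGGAAGT (PU.1), TTCAGCACC and GGACAGCG (the left and right parts of the REST element), GGGCGG (SP1), TGACGTCA (CRE), TGANTCA (AP-1) and CAGCTG (E-box). GTCACGTG contains CACGTG, so that a match to the longer is also a match to the shorter.
Kcna3, chr3:107035912-107036161, + strand: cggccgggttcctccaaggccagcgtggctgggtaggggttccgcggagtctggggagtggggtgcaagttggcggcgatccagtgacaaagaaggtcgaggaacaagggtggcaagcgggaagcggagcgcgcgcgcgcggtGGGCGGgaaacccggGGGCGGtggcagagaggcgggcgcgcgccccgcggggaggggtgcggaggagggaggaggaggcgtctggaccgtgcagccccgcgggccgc
Kcnn1, chr8:70857009-70857258, - strand: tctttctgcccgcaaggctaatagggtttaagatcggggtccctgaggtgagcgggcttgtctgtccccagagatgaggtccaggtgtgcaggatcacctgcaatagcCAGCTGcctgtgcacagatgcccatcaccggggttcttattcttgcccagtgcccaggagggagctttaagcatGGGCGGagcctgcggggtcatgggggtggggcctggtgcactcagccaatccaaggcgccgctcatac
Kcnn4, chr7:24370013-24370262, + strand: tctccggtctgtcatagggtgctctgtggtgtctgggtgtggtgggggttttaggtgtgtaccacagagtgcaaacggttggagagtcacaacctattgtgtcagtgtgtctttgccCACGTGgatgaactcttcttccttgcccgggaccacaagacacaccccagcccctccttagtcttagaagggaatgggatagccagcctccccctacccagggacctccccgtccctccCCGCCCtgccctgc
Kcnj10, chr1:172340960-172341209, + strand: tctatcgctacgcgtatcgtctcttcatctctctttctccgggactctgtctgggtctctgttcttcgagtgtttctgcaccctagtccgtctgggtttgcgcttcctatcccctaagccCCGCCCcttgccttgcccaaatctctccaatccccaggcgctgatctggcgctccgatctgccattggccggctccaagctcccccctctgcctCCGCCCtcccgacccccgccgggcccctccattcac
The Kcna3 and Kcnj10 stretches each carried 2 GGGCGG matches and lay under a peak in all 3 tables. The Kcnn1 stretch had 1 CAGCTG and 1 GGGCGG match and also lay under a peak in all 3. The Kcnn4 stretch, with 1 CACGTG and 1 GGGCGG match, overlapped a peak in the microglia table alone. Its GC content was 58.8%, against 74.4% for Kcna3, 60.4% for Kcnn1 and 62.0% for Kcnj10.

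RefSeq windows of 300 bases (250 before to 50 after the start) were found for 71 of the 96 genes, 97 windows in all. The SP1 motif GGGCGG was in 47.4% of them and in 35.7% of all 32851 windows, and CAGCTG was in 24.7% against 16.3%. CACGTG was in 7.22% against 7.15%, in the windows of Kcnab1, Kcne4, Kcnh4, Kcnj2, Kcnk5 and Kcnn4, and GTCACGTG in 1.03% against 2.25%, with Kcne4 as the gene. The REST parts were each in 1 window (1.03%, against 0.371% and 1.26%), of Kcnh6 and Kcnj4. AP-1 matches were in 4.12% against 7.81%. PU.1 and CRE matches were in 0 of the 97 windows and in 3.2% and 1.79% of all windows. These are counts of letters in windows, and no test was made of them.

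Potassium channel peaks were most numerous in NeuN+ nuclei. They made up 1.01% of all NeuN+ peaks, 0.517% of Olig2+ peaks and 0.369% of microglia peaks. Kcnab2, an auxiliary beta subunit, and Kcnj6, a G protein-gated inward rectifier, led the NeuN+ table with 52 peaks each and Kcnma1, the large-conductance calcium-activated pore, had 48. In Olig2+ nuclei the neighbours Kcna6 and Kcna1 had 50 and 37 peaks and Kcnj10 had 29. In microglia Kcnk13 had 19, ahead of Kcnip3 with 18.

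Of the 96 genes, 32 had a start-site peak in all 3 tables, and 18 had one in NeuN+ nuclei alone. The NeuN+ set included Kcnj3 and Kcnj6, which form G protein-gated rectifiers, Kcnd2 of the A-type current, and the silent subunits Kcnf1, Kcns1, Kcns2, Kcns3 and Kcnv1. Microglia alone had one at Kcna7, Kcnd1, Kcnh6, Kcnj8, Kcnn4 and Kcnq1. Olig2+ nuclei alone had one at Kcna10 and Kcne4. Another 13 genes, among them Kcnk6, Kcnk12 and Kcnt1, were shared by microglia and NeuN+ nuclei, 6 (Kcna1, Kcna6, Kcnh5, Kcnj9, Kcnn2 and Kcnq5) by NeuN+ and Olig2+ nuclei, and Kcnj16 by microglia and Olig2+ nuclei. The remaining 18 genes had distal peaks only. Of the protein-coding Kcn genes in the RefSeq gene table, 1, Kcnj14, had no peak in any table.

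Members of the NeuN+ table overlapped peaks of the other tables less often than NeuN+ peaks at large. Counting any overlap of positions, 74 of 155 start-site members (47.7%) overlapped no peak of either other table, against 20.4% of all NeuN+ start-site peaks. For distal members the share was 84.8%, against 70.9%. In Olig2+ nuclei 10.8% of the start-site members overlapped no peak of the other tables, against 14.9% of all start-site peaks. In microglia the shares were 36.7% and 26.2%. These shares depend on which peaks were called in each sort and were not tested. A peak that is not in a table was not measured there.

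WT levels were read at channel genes known from microglia, glia or neurons, each at the start-site peak nearest to an annotated start. Kcnj10 had 216 and 205 tags in Olig2+ nuclei, 113 and 114 in microglia and 15.9 and 18.6 in NeuN+ nuclei. Kcnk13 was highest in microglia (82.1 and 53.4), then in Olig2+ nuclei (32.2 and 40.9) and lowest in NeuN+ nuclei (20.4 and 18.6).
Kcna3 was highest in microglia (66.5 and 70.3 tags), then in NeuN+ nuclei (49.3 and 42.4), and lowest in Olig2+ nuclei (32.2 and 25.6). The order of Kcna3 depended on the scaling: per 10000000 tags in peaks it was highest in NeuN+ nuclei (185 and 163), then in microglia (119 and 144), and lowest in Olig2+ nuclei (101 and 80.4). On that scale Kcnk13 in microglia (147 and 110) and in Olig2+ nuclei (101 and 129) overlapped, and Kcnj10 kept its order. Kcnk6, another 2-pore channel, had 67.4 and 83.0 tags in microglia, 10.2 and 9.6 in NeuN+ nuclei and no start-site peak in Olig2+ nuclei. Kcnn4 had a start-site peak in microglia alone, at 3.46 and 3.39 tags in WT. Peaks of different genes differ in width, and levels are compared within a gene only.

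**Figure D1:**
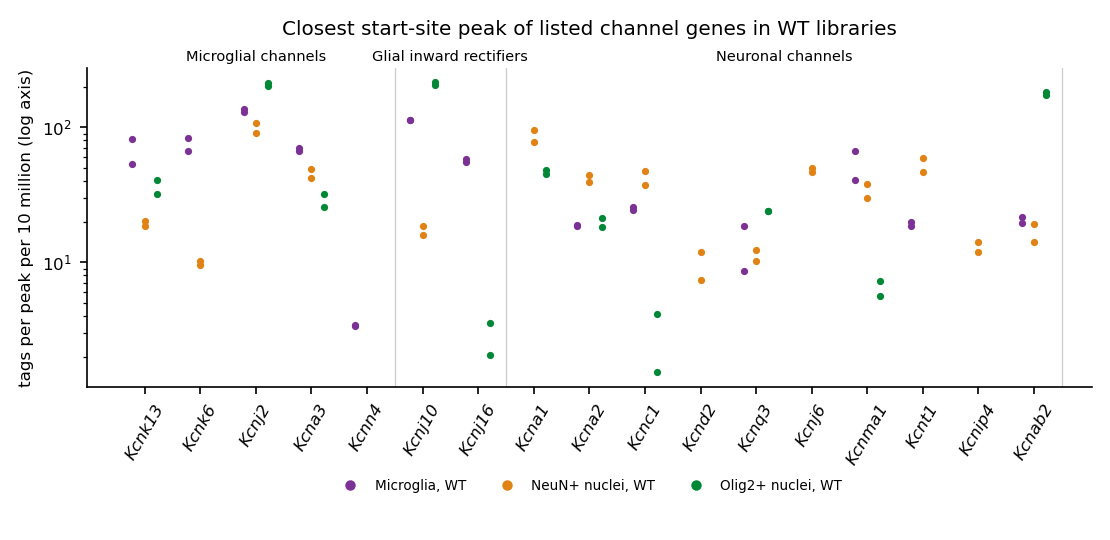
WT tags per peak per 10000000 (log axis) at the closest start-site peak of the listed channel genes shown, with 2 points for the 2 WT libraries of each sort and no point where a table has no such peak. Kcnj10 in Olig2+ nuclei (216 and 205 tags) is the highest pair shown and Kcnc1 in Olig2+ nuclei (4.15 and 1.53) holds the lowest point.

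Pairs of peaks that matched between tables allowed a test of the WT levels across sorts, with limma on 8 libraries and Benjamini-Hochberg adjustment over all pairs. Of 50 start-site member pairs of NeuN+ and Olig2+ nuclei, 30 were lower and 8 higher in Olig2+ nuclei, where the background over all 14371 start-site pairs was 24.4% lower and 36.7% higher. Their median difference was -0.88 on the log2 scale, against 0.14 for all start-site pairs. Of 98 member pairs of microglia and NeuN+ nuclei, 37 were lower and 19 higher in NeuN+ nuclei (background 47.3% and 14.6%). Of 71 pairs of microglia and Olig2+ nuclei, 39 were lower and 9 higher in Olig2+ nuclei (background 43.8% and 20.9%). Microglia libraries had a higher share of tags in peaks, and scaled to tags in peaks the split for NeuN+ nuclei turned to 14 lower and 42 higher and that for Olig2+ nuclei came to 20 lower and 16 higher.

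The widest WT differences included channels known for one cell type. Kcnj10 was higher in Olig2+ than in NeuN+ nuclei (log2 difference 3.54 ± 0.18 (SE), adjusted p = 2.09e-18). Kcnj9, a G protein-gated rectifier, differed in the other direction, with 97.4 and 87.5 tags in NeuN+ and 3.63 and 9.72 in Olig2+ nuclei (-3.73 ± 0.27 (SE), adjusted p = 4.63e-14). Kcnc1, the Kv3.1 pore, did likewise (-3.58 ± 0.32 (SE), adjusted p = 8.66e-12).
Against microglia, a Kcnq3 peak upstream of its start was higher in NeuN+ nuclei (3.52 ± 0.30 (SE), adjusted p = 3.83e-09) and in Olig2+ nuclei (3.97 ± 0.28 (SE), adjusted p = 1.81e-09). Kcnh1, a voltage-gated pore of the ether-à-go-go group, was also higher in NeuN+ nuclei than in microglia, at 163 and 155 against 24.2 and 6.78 tags. One start-site peak of Kcnj16, an inward rectifier that joins Kcnj10, was lower in Olig2+ nuclei than in microglia, at 2.07 and 3.58 against 57.9 and 55.1 tags (-3.94 ± 0.34 (SE), adjusted p = 2.16e-08). Olig2+ nuclei had another Kcnj16 start-site peak, at chr11:111022946-111023185 near a different annotated start, with 36.8 and 37.3 tags in WT. That peak overlapped no microglia peak.

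Between genotypes, the direction of the called changes depended on the sort and on the place of the peak. A peak was called at a limma adjusted p under 0.05 over its whole table. In microglia 4 of 90 start-site members were higher and 2 lower in SgshKO (background 8.59% and 1.2% of all start-site peaks), and 8 of 249 distal members were higher and 6 lower (background 3.8% and 2.72%). In NeuN+ nuclei 69 of 155 start-site members were lower and 1 was higher (background 44.9% and 1.74%). Their distal peaks split into 124 higher and 106 lower of 929 (background 12.6% and 12.6%). In Olig2+ nuclei 13 of 65 start-site members were higher and 3 lower (background 12.7% and 7.56%), and 19 of 362 distal members were higher and 63 lower (background 6.7% and 13%). The shares in NeuN+ nuclei were close to those of all peaks. In microglia the start-site share called higher was below the background, and the Olig2+ distal share called lower, 17.4%, was above it.

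**Figure D2:**
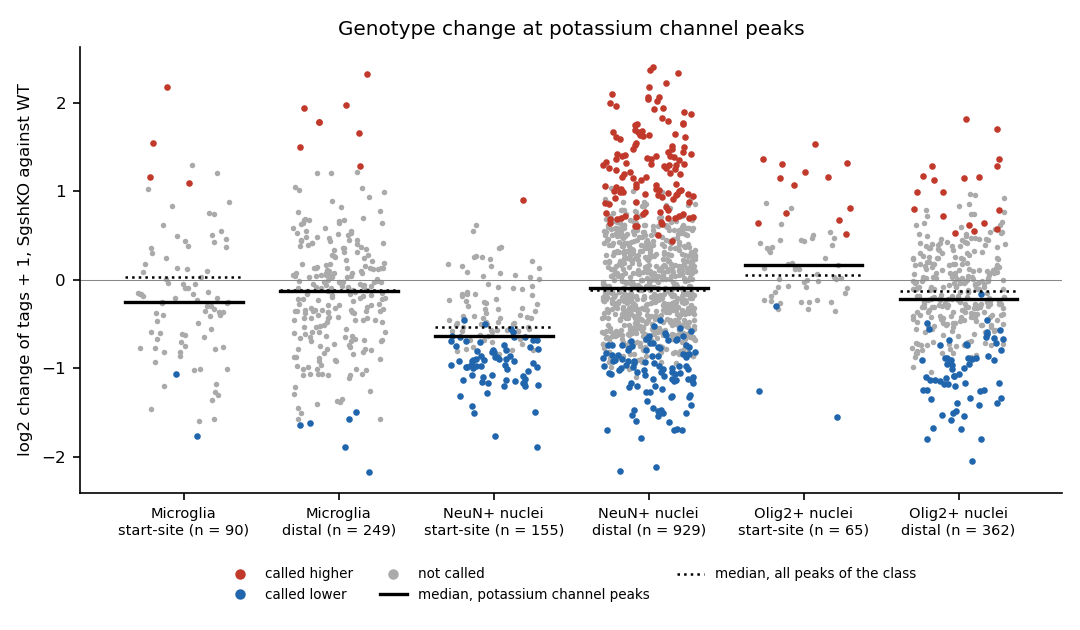
log2 change (SgshKO against WT, tags + 1) of each potassium channel peak by sort and class, with called peaks in colour, the median of the members as a solid bar and that of all peaks of the class as a dotted bar. NeuN+ start-site members sit mostly below 0 (median -0.64, all NeuN+ start-site peaks -0.53) and Olig2+ start-site members mostly above it (median 0.17, all 0.05).

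In microglia the called start-site changes were few and spread over channels of different kinds. Kcnn4, the intermediate-conductance calcium-activated channel, had 3.46 and 3.39 tags in WT and 21.6 and 16.7 in SgshKO at chr7:24369925-24370150, a log2 change of 2.18 ± 0.51 (SE), adjusted p = 0.00511. Both SgshKO libraries lay above both WT libraries, although the WT libraries held only 4 reads each. Kcnn1, a small-conductance calcium-activated channel, had 69.1 and 66.1 tags in WT and 181 and 128 in SgshKO (1.16 ± 0.31 (SE), adjusted p = 0.0146).
Kcnab3, an auxiliary beta subunit, rose alike, with 93.3 and 83 tags in WT and 219 and 162 in SgshKO (1.09 ± 0.29 (SE), adjusted p = 0.0167). The genotypes did not overlap at either gene. Kcnk10, a 2-pore channel of the TREK group, rose from 5.19 and 11.0 to 25.1 and 23.2 tags. Kcnk12, a silent relative of THIK-1, fell, with 85.6 and 94.9 tags in WT and 39.8 and 45.5 in SgshKO (-1.06 ± 0.33 (SE), adjusted p = 0.0418), and Kcnc2, a fast delayed rectifier, fell from 17.3 and 16.1 to 2.6 and 6.5 tags. The Kcnk12 call was lost with DESeq2 (adjusted p = 0.0931) and with edgeR without WT replicate 2 (0.213).

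Among the distal microglia peaks, one inside Kcnn1, 2900 bp from its start at chr8:70854004-70854213, had 179.8 and 129.6 tags in WT and 523 and 266 in SgshKO (1.28 ± 0.29 (SE), adjusted p = 0.00418). Kcnn1 thus had 2 called increases among its 7 microglia peaks. Kcnj2, the Kir2.1 inward rectifier, rose at 2 intergenic peaks 23021 and 26965 bp from its start, the first with 26.8 and 18.6 tags in WT and 76.2 and 68.7 in SgshKO (1.65 ± 0.37 (SE), adjusted p = 0.00369).
A distal peak in Kcnt1, a sodium-activated pore, fell from 68.3 and 55.1 to 24.2 and 14.9 tags (-1.64 ± 0.39 (SE), adjusted p = 0.00615). Peaks assigned to Kcnj9 (-1.62 ± 0.41 (SE), adjusted p = 0.0115) and Kcnk18 (-1.49 ± 0.38 (SE), adjusted p = 0.0108) also fell, as did 2 of 10 distal peaks of Kcnip2, an auxiliary subunit of the A-type current.

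The channels best known in microglia, other than Kcnn4, had no called start-site change in that sort. Kcnk13 had 82.1 and 53.4 tags in WT and 45 and 30.6 in SgshKO, which did not overlap but did not pass. It stayed uncalled in 13 of 18 alternatives and was called lower in the others, among them scaling to tags in peaks (limma adjusted p = 0.0233) and the replicate block (0.0413). Kcna3 had 66.5 and 70.3 tags in WT and 78.8 and 60.3 in SgshKO, where the genotypes overlapped. Kcnj2 had 137 and 129.6 tags in WT and 183 and 183 in SgshKO at its start site, which did not overlap but did not pass (adjusted p = 0.354). Kcnk6 had 67.4 and 83 tags in WT and 84.8 and 43.6 in SgshKO, with overlap. The Kcnq3 peak had 8.64 and 18.6 tags in WT and 42.4 and 25.1 in SgshKO, apart but not past the threshold (1.29 ± 0.45 (SE), adjusted p = 0.074). This Kcnq3 peak stayed uncalled in 9 of 18 alternatives and was called higher in the others. Among those were median-of-ratios scaling (limma adjusted p = 0.042) and edgeR with all 4 libraries (0.0342). Of the 19 Kcnk13 peaks in microglia, 0 were called.
The number of microglia calls changed with the libraries used. Without WT replicate 1 or 2, limma called 0 of the start-site members and edgeR 5 in each case, and without SgshKO replicate 1 or 2 limma called 21 or 15. For distal members limma called 2 and 0 without WT replicate 1 or 2, and 55 and 44 without SgshKO replicate 1 or 2. Scaled to tags in peaks, the microglia splits turned to 5 higher and 12 lower at start sites and 8 higher and 32 lower in distal members.

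In NeuN+ nuclei each of the 6 channel families held start-site decreases, at shares that lay around the 44.9% of all start-site peaks. Lower calls came to 27 of 61 voltage-gated pore peaks, 10 of 19 of the 2-pore peaks, 10 of 24 auxiliary, 8 of 14 calcium- or sodium-activated, 8 of 16 inward rectifier and 6 of 18 silent subunit peaks, and they covered 51 genes. Another 3 start-site peaks, of RNA genes named after channels, had 0 calls. The 1 higher call was at Kcnk16, a 2-pore channel, from 6.23 and 5.65 to 9.77 and 14.6 tags. Kcnq3, a pore subunit of the M current, had 161 and 152 tags in WT and 67 and 69.2 in SgshKO at chr15:66286690-66286946 (-1.19 ± 0.12 (SE), adjusted p = 2.76e-06).
The genotypes did not overlap at that Kcnq3 peak. Kcnc1 fell at 2 start-site peaks, the farther with 40.2 and 27.1 tags in WT and 11.2 and 12.1 in SgshKO (-1.43 ± 0.25 (SE), adjusted p = 0.000484).

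Among the strong inward rectifiers, Kcnj4 (Kir2.3) had 39.1 and 32.8 tags in WT and 15.4 and 14.6 in SgshKO (-1.20 ± 0.22 (SE), adjusted p = 0.000778) and Kcnj12 (Kir2.2) 22.7 and 22 tags in WT and 7.68 and 10.8 in SgshKO (-1.21 ± 0.27 (SE), adjusted p = 0.00344). Kcnj2 fell from 107 and 90.4 to 55.8 and 44.4 tags (-0.97 ± 0.15 (SE), adjusted p = 0.000211), and Kcnj6 from 46.5 and 49.7 to 27.9 and 31.1 (-0.69 ± 0.18 (SE), adjusted p = 0.00962). The Shaker-type pores Kcna1 (-0.59 ± 0.17 (SE), adjusted p = 0.0133) and Kcna2 (-0.89 ± 0.22 (SE), adjusted p = 0.00555) fell as well, as did Kcnma1 at its start (-0.64 ± 0.22 (SE), adjusted p = 0.0312).
At some neuronal channels the peak nearest to a start did not pass. Kcnt1 had 46.5 and 59.3 tags in WT and 43.3 and 55.9 in SgshKO, with overlapping genotypes. Kcnd2 (7.36 and 11.9 against 6.98 and 6.35 tags) and Kcnip4 (14.2 and 11.9 against 9.07 and 7.62) were low in both genotypes. Kcnd2 had another start-site peak that fell, 799 bp upstream (-1.15 ± 0.22 (SE), adjusted p = 0.00115).
NeuN+ SgshKO libraries also had fewer tags in peaks, and start-site levels were lower for neuron markers and for the table as a whole. Scaled to tags in peaks, 40 start-site members were lower, all 40 of them among the 69, and 4 were higher. The calls at Kcna1, Kcnj6, Kcnma1 and Kcnc1 nearest to its start were lost under that scaling, with adjusted p-values of 0.174, 0.117, 0.238 and 0.0875. Without either NeuN+ SgshKO library limma called no peak in the whole table, while edgeR on the reads still called 30 and 33 of the start-site members. edgeR with all 4 libraries called 49 lower. DESeq2 did not call the named start-site peaks of Kcna1, Kcna2, Kcna3, Kcnc1, Kcnj4, Kcnj6, Kcnj12 and Kcnma1 (adjusted p from 0.0591 to 0.593).

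Distal NeuN+ peaks moved in both directions, and the share of each direction differed with distance from the start. Between 1000 and 10000 bp, 34 of 243 members were lower and 13 higher. Between 10000 and 100000 bp the counts were 57 lower and 68 higher of 493, and beyond 100000 bp 15 lower and 43 higher of 193. All NeuN+ peaks showed the same order, with 26.3% higher and 6.06% lower beyond 100000 bp. Distal members called higher lay a median of 68526 bp from a start and belonged to genes with a median length of 186348 bp. Those called lower lay 21453 bp away, in genes of 60002 bp, and 73.6% of them were within their own gene, against 40.3% of those called higher. Uncalled distal members lay a median of 25620 bp away, in genes of 54483 bp, with 57.2% within their own gene.

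**Figure D3:**
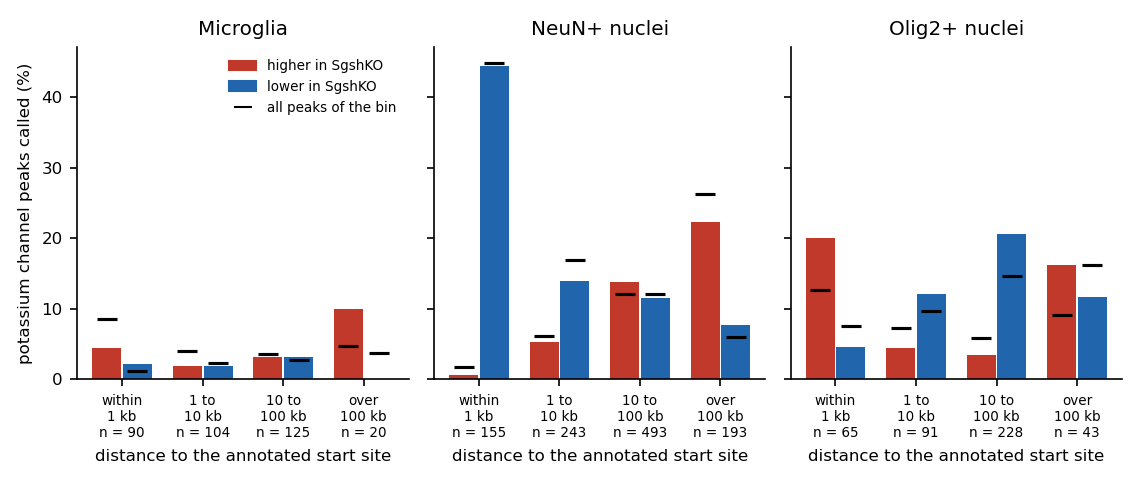
Share of potassium channel peaks called higher (red) or lower (blue) in SgshKO by distance to the annotated start site, with black marks for all peaks of the same bin. In NeuN+ nuclei lower calls go from 44.5% of members within 1000 bp to 7.77% beyond 100000 bp and higher calls from 0.645% to 22.3%, close to the marks for all peaks.

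Single genes differed in which way their distal peaks went. Of all NeuN+ distal peaks 12.6% were higher and 12.6% lower, with 26.3% higher beyond 100000 bp and 16.9% lower between 1000 and 10000 bp. At start sites 1.74% of all peaks were higher and 44.9% lower. The counts below include start-site peaks where a gene had them. Kcnip4, a long gene for an auxiliary subunit of the A-type current, had 12 higher and 2 lower calls among 17 peaks. Its summed level was 219 and 211 tags in WT and 300.1 and 271 in SgshKO. Kcnj3, the GIRK1 rectifier, had 8 higher calls among 17 peaks and 2 lower, and Kcne4, a single-pass auxiliary subunit, had 5 higher of 7 and none lower.
Kcnab2 went the other way. Of its 52 NeuN+ peaks, 17 were lower and 0 higher, 47 had a change below 0, and the summed level was 1054 and 1072 tags in WT and 699 and 701 in SgshKO. Kcnj6, with as many peaks, had 9 lower and 3 higher. All 52 Kcnab2 peaks lay within the gene itself. These genes were picked after their values were seen.

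The named distal changes in NeuN+ nuclei included the largest called increase above the median level at Kcnt2, a sodium-activated pore, in its first intron at chr1:140339460-140339669, with 3.97 and 4.52 tags in WT and 16.8 and 30.5 in SgshKO (2.17 ± 0.33 (SE), adjusted p = 0.00013). An intergenic peak assigned to Kcnq3, at -67801 bp from its start, rose from 12.5 and 10.2 to 41.2 and 52.7 tags (1.96 ± 0.23 (SE), adjusted p = 1.27e-05), opposite in direction to its start site. Kcnma1, a gene with 48 peaks here, held both a higher intronic peak (1.79 ± 0.35 (SE), adjusted p = 0.00119) and a lower one (-1.30 ± 0.22 (SE), adjusted p = 0.000343).
Peaks at Kcnj3 (1.87 ± 0.33 (SE), adjusted p = 0.000548) and Kcnmb2, an auxiliary subunit of Kcnma1 (1.63 ± 0.27 (SE), adjusted p = 0.000286), rose. Peaks at the leak channels Kcnk9 (-1.48 ± 0.25 (SE), adjusted p = 0.000348) and Kcnk15 (-1.42 ± 0.26 (SE), adjusted p = 0.000643), at Kcnh1 (-1.32 ± 0.27 (SE), adjusted p = 0.00184) and at Kcnj9 (-1.17 ± 0.27 (SE), adjusted p = 0.00369) fell.
DESeq2 did not call these decreases at Kcnma1, Kcnk9, Kcnk15, Kcnh1 and Kcnj9 (adjusted p from 0.0578 to 0.278).
The balance of the NeuN+ distal members depended on the scaling. It was 196 higher and 46 lower when scaled to tags in peaks, 173 and 58 with median-of-ratios scaling, 117 and 43 with quantile normalization, 158 and 59 with cyclic loess, 182 and 60 with edgeR and 28 and 3 with DESeq2. The median change of all NeuN+ peaks was -0.23 as deposited and moved up by 0.15 to 0.28 under the limma scalings. Under those scalings the median change of the start-site members was -0.35 to -0.47.

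In Olig2+ nuclei start-site members were called higher more often than lower. Of the 13 increases 9 were at voltage-gated pores, which made up 29 of the 65 start-site members. Kcnq3 had 221 and 209 tags in WT and 334 and 336 in SgshKO at chr15:66286636-66286836 (0.64 ± 0.08 (SE), adjusted p = 1.19e-06). Kcna3 had 32.2 and 25.6 tags in WT and 56 and 67.1 in SgshKO (1.07 ± 0.19 (SE), adjusted p = 0.000147). At these peaks of Kcnq3 and Kcna3 the 2 genotypes were apart. Another Kcnq3 start-site peak, nearer to the start, had 23.9 and 24.0 tags in WT and 23.4 and 25.3 in SgshKO. It was not called (adjusted p = 0.961).
Kcnip3, an auxiliary calcium-binding subunit, rose at 1 of its 3 start-site peaks, from 47.7 and 48.6 to 75.01 and 79.8 tags (0.67 ± 0.15 (SE), adjusted p = 0.00255). Its other start-site peaks were not called (adjusted p = 0.367 and 0.348). Kcnh2, the ERG pore, had 14.5 and 23.01 against 35.1 and 30.6 (0.81 ± 0.24 (SE), adjusted p = 0.0175), and Kcnn2, a small-conductance calcium-activated channel, 22.8 and 12.8 against 32.6 and 26.6 (0.75 ± 0.26 (SE), adjusted p = 0.0374). Both calls were lost with DESeq2 (adjusted p = 0.139 for Kcnh2 and 0.223 for Kcnn2). With edgeR the Kcnh2 call was lost without WT replicate 1 (0.148) or SgshKO replicate 1 (0.108), and that of Kcnn2 without WT replicate 2 (0.309) or SgshKO replicate 1 (0.222). Several increases started from few tags.
Kcnma1 rose from 7.26 and 5.62 to 20.3 and 14.6 tags (1.30 ± 0.32 (SE), adjusted p = 0.00412), Kcnc1 from 4.15 and 1.53 to 6.15 and 7.98 (1.15 ± 0.42 (SE), adjusted p = 0.0482) and Kcnj16 from 2.07 and 3.58 to 10.5 and 9.31 (1.53 ± 0.38 (SE), adjusted p = 0.00502). The Kcnc1 call was lost in 8 of 16 alternatives, among them a pseudocount of 0.5 (adjusted p = 0.0578), the replicate block (0.0518) and limma without WT replicate 1 (0.0967), WT replicate 2 (0.472) or SgshKO replicate 2 (0.0642). The Kcnj16 call was lost without WT replicate 1 (0.0986). In WT these 3 peaks had lower levels than the matched peak of microglia or NeuN+ nuclei. The other Kcnj16 start-site peak of Olig2+ nuclei had 36.8 and 37.3 tags in WT and 32 and 43.2 in SgshKO, and was not called (adjusted p = 0.992). The neuron marker sum was higher and the oligodendrocyte marker sum lower in these SgshKO libraries, and whether that bears on the channel peaks was not tested.

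The 3 start-site decreases in Olig2+ nuclei were Kcnj10, Kcna4 and Kcne4. Kcnj10, the glial potassium buffer, had 216 and 205 tags in WT and 169 and 172 in SgshKO (-0.30 ± 0.09 (SE), adjusted p = 0.0241), a small change without overlap, whose adjusted p was 0.0722 with median-of-ratios scaling, 0.0595 with edgeR and 0.332 with DESeq2. Its 29 peaks summed to 2020 and 1888 tags in WT and 1789 and 1757 in SgshKO, with 4 lower calls and 0 higher. Of the 29 changes 14 were above 0 and 15 below, with a median of -0.0065. Of all Olig2+ peaks, 7.56% at start sites and 13% of the distal ones were lower. In microglia the Kcnj10 start site was not called (113 and 114 against 168 and 151 tags, adjusted p = 0.328), and in NeuN+ nuclei it was low (15.9 and 18.6 against 12.6 and 8.25).
Kcne4 fell from 9.85 and 7.16 to 2.46 and 1.99 tags, and Kcna4, a fast-inactivating Shaker-type pore, from 12.5 and 13.3 to 6.76 and 3.32. Kcnj2, at 213 and 201 tags in WT and 170 and 180 in SgshKO, did not pass (adjusted p = 0.0673).

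The distal decreases of Olig2+ nuclei included groups of peaks at a few genes. The neighbouring Shaker-type genes Kcna1, Kcna5 and Kcna6 held 94 distal peaks between chr6:126500235-126784541, of which 20 were lower and 1 higher. Their summed level was 2869 and 2893 tags in WT and 2237 and 2239 in SgshKO, without overlap. Of the other 268 distal members 43 were lower and 18 higher. In the cluster 21.3% were lower, against 13% of all Olig2+ distal peaks and 14.6% of all those 10000 to 100000 bp from a start. The start-site peaks of the cluster had 0 calls among 6.
A Kcna6 peak at chr6:126697918-126698156 had 57.6 and 60.3 tags in WT and 27.7 and 17.3 in SgshKO (-1.39 ± 0.21 (SE), adjusted p = 1.96e-05). Kcns1, a silent subunit, had 5 lower calls among 7 distal peaks, one of them falling from 28.5 and 37.3 to 10.5 and 8.64 tags (-1.68 ± 0.26 (SE), adjusted p = 3.12e-05), and Kcnip1 5 among 10 (-1.51 ± 0.28 (SE), adjusted p = 0.000271 at the peak with the largest change above the median level). The cluster, Kcns1 and Kcnip1 were picked after their values were seen.
Peaks in Kcnh1 (-1.39 ± 0.29 (SE), adjusted p = 0.000907) and Kcnk13 (-1.34 ± 0.24 (SE), adjusted p = 0.000195) also fell. Distal increases included a strong intergenic peak assigned to Kcnj2, 446505 bp away, with 115 and 117 tags in WT and 191 and 211 in SgshKO (0.79 ± 0.10 (SE), adjusted p = 2.8e-06), and peaks at Kcnab1 (1.12 ± 0.22 (SE), adjusted p = 0.000448), Kcnd3 (0.99 ± 0.22 (SE), adjusted p = 0.00165), Kcna2 (0.72 ± 0.14 (SE), adjusted p = 0.00072) and Kcnk5 (0.80 ± 0.29 (SE), adjusted p = 0.0472). The Kcnk5 call was kept in 11 of 17 alternatives and the Kcnd3 call in 17 of 18, with the losses in fits that left out 1 library. edgeR gave 26 higher and 51 lower distal members and cyclic loess 26 and 37.

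**Figure D4:**
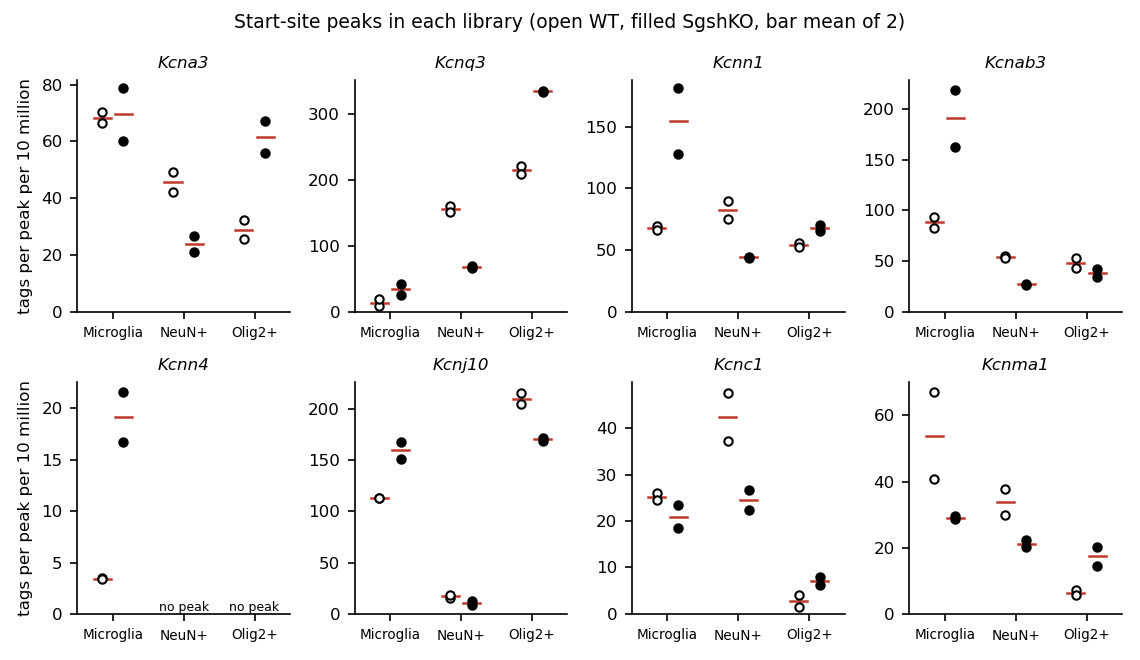
Tags per peak per 10000000 at start-site peaks of 8 channel genes in each library, with open points for WT, filled points for SgshKO and a bar at the mean of 2. Kcna3 and Kcnq3 are lower in SgshKO NeuN+ nuclei and higher in SgshKO Olig2+ nuclei, and Kcnn4 has a start-site peak in microglia alone.

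The opposite directions were tested as the difference of the genotype changes at matched peaks. Between NeuN+ and Olig2+ nuclei 27 of 50 start-site member pairs had a more positive change in Olig2+ nuclei and 0 a more negative one (background 49.4% and 1.73% of start-site pairs). Over all 139 member pairs these were 35 and 6 (background 31.8% and 3.29%). For 88 distal pairs the counts were 8 and 6 (background 15% and 4.77%). The Kcnq3 peak differed by 1.82 ± 0.14 (SE), adjusted p = 1.4e-11 and the Kcna3 peak by 1.99 ± 0.28 (SE), adjusted p = 1.22e-06. A distal peak assigned to Kcne4 went the other way, from 18.7 and 24.3 to 36.3 and 29.8 tags in NeuN+ and from 170 and 162 to 67.02 and 89.7 in Olig2+ nuclei (difference -1.69 ± 0.25 (SE), adjusted p = 2.01e-06).
By their separate calls, 8 of the 50 start-site pairs were lower in NeuN+ and higher in Olig2+ nuclei, namely those of Kcna2, Kcna3, Kcnc1, Kcnh2, Kcnh5, Kcnma1, Kcnn2 and Kcnq3, and 0 the reverse. The difference of changes was called at each of these 8 pairs, with the largest adjusted p, 0.00141, at Kcnn2. The pairs were picked by calls in the same libraries, so this is not separate evidence for them. The separate Olig2+ calls of Kcnc1, Kcnh2 and Kcnn2 were among those lost in alternatives above. DESeq2 lost the NeuN+ calls of Kcna3 (adjusted p = 0.242), Kcnc1 (0.418) and Kcnma1 (0.593). Scaling to tags in peaks lost those of Kcnc1 (limma adjusted p = 0.0875) and Kcnma1 (0.238). The NeuN+ call of Kcnq3 was kept in both, and that of Kcna3 under the scaling. Over all start-site pairs these numbers were 1328 and 11 of 14371.

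**Figure D5:**
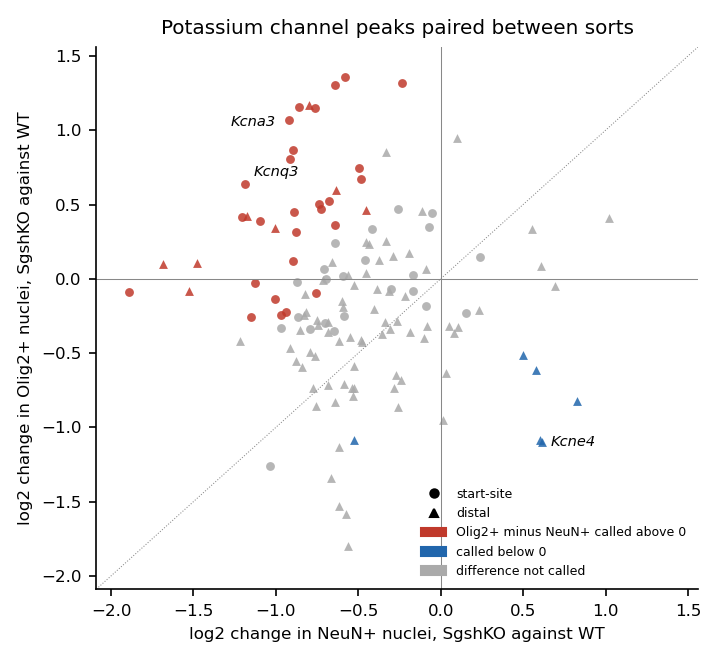
log2 change (SgshKO against WT) in NeuN+ nuclei on the x axis and in Olig2+ nuclei on the y axis. Points are the 50 start-site and 88 distal potassium channel peaks matched between the 2 tables, coloured where the difference between the changes was called. The 35 called above 0 lie above the dotted line of equal change and the 6 called below 0 lie under it, with Kcne4 at the lower right.

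Between microglia and NeuN+ nuclei 25 of 98 member pairs had a more negative change in NeuN+ nuclei and 1 a more positive one (background 27.7% and 1.6%). Kcnab3 differed by -2.06 ± 0.29 (SE), adjusted p = 1.84e-05, as it rose in microglia and fell in NeuN+ nuclei from 54.9 and 52.5 to 27.2 and 26.7 tags. Kcnn1 did the same, from 89.5 and 75.1 to 44.7 and 43.8 in NeuN+ nuclei (difference -2.04 ± 0.29 (SE), adjusted p = 2.07e-05).
Between microglia and Olig2+ nuclei the 71 pairs gave 5 more positive and 4 more negative changes in Olig2+ nuclei (background 2.91% and 12.3%). Kcnab3 was more negative there (-1.42 ± 0.30 (SE), adjusted p = 0.00401), while Kcnma1 (2.12 ± 0.47 (SE), adjusted p = 0.00507) and Kcnj16 (1.91 ± 0.49 (SE), adjusted p = 0.0123) were more positive. The microglia libraries of Kcnma1 had 40.6 and 66.9 tags in WT and 29.4 and 28.8 in SgshKO, and those of Kcnj16 57.9 and 55.1 against 52.8 and 35.3, neither of them called.
These splits also turned with the scaling. With tags in peaks as the total, the microglia and NeuN+ pairs gave 7 more positive and 8 more negative changes, and the NeuN+ and Olig2+ pairs 26 and 9. Median-of-ratios scaling gave 17 and 12 for the latter.

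The partners of potassium channels were read in the same way from a fixed list of 25 genes: channel-associated proteins, subunits of the sodium-potassium pump, chloride cotransporters and HCN channels. In NeuN+ nuclei 31 of their 64 start-site peaks were lower and 0 higher, close to the background of 44.9% and 1.74%. Of the start-site peaks of the pump subunits 13 of 16 were lower, and Hcn2, Hcn3 and Hcn4 each had a lower start-site peak. Of the 255 distal peaks of the whole list 33 were higher and 35 lower (background 12.6% and 12.6%). The distal peaks of the channel-associated proteins, which include Dpp6, Dpp10 and Cntnap2, had 28 higher and 6 lower calls of 119. Of all NeuN+ peaks beyond 100000 bp from a start 26.3% were higher and 6.06% lower, and the distances of the listed peaks were not examined. The distal peaks of the pump subunits had 4 higher and 15 lower calls of 76, and those of the cotransporters 0 and 11 of 34.
In Olig2+ nuclei 7 of 35 start-site peaks of the list were higher and 0 lower (background 12.7% and 7.56%). Hcn2, a hyperpolarization-activated channel, had all 9 of the higher distal calls among the 28 distal peaks of the HCN group (background 6.7%). In microglia 6 of 27 start-site peaks were higher and 1, at Slc12a5, was lower (background 8.59% and 1.2%).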

How the data were processed

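ATAC-seq was measured in 12 libraries, 2 per genotype and sort. Bowtie2, HOMER and mm10 are named in the submitters' processing notes, with no version. The deposited signal is tags per merged peak, scaled by the authors to 10000000 tags per library, per the file headers. The deposited peak score was not used. Dividing by the value of 1 read gave whole reads for 100.0% of values (within 0.01), and 0 of the 12 tag columns lacked a sample.

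Each table was tested with limma 3.58.1 (R 4.3.3, intensity trend, two-sided) on log2(tags + 1), a scale that understates changes of low peaks, with Benjamini-Hochberg adjustment over all its peaks. A call is an adjusted p under 0.05. limma called 6765 peaks in microglia, 32105 in NeuN+ and 16370 in Olig2+ nuclei. edgeR 4.0.16 on the recovered reads called 14202, 29461 and 17860, and DESeq2 1.42.0 called 4843, 4900 and 3589. Peaks of 2 tables were paired at a reciprocal overlap of 50% (bedtools 2.31.1) and fitted over 8 libraries.

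The members and lists were chosen with earlier results of these data known. Named peaks were, per table and class, the 5 largest called changes each way at or above the table's median level, 1 per gene, the closest start-site peak of each listed channel gene, the 3 widest WT differences each way and the 3 smallest p of a difference between sorts, and the genes with most peaks; others are named from counts or after their values were seen. Results on some of these genes are not reported here. In simulated data limma recovered 19.1% of 68 changes of 2-fold set among 91770 microglia peaks. It recovered 41.7% of 60 among 107627 NeuN+ peaks and 75% of 52 among 82577 Olig2+ peaks. The changes were set only at peaks at or above the median WT level, and in fewer peaks than were called in the data. These shares therefore do not give the detection rate in the real peaks, and low peaks were not simulated. Alternatives covered the threshold, start-site window, pseudocount, a filter on low peaks, scaling, the replicate block, tool, overlap and each library left out.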

Additional observations from a re-analysis of the deposited data

Results flagged for a closer look

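At the matched peaks below the genotype change differed between 2 sorts by limma's test of the difference, and they are among the 3 with the smallest p per pair of sorts. On the log2 scale, the change in NeuN+ nuclei minus that in microglia was -2.06 at Kcnab3 and -2.04 at Kcnn1. The change in Olig2+ nuclei minus that in microglia was -1.42 at Kcnab3, 2.12 at Kcnma1 and 1.91 at Kcnj16. The change in Olig2+ nuclei minus that in NeuN+ nuclei was 1.82 at Kcnq3, 1.99 at Kcna3 and -1.69 at a distal peak assigned to Kcne4. Kcnma1 lost its call without microglia WT replicate 2 (adjusted p = 0.0552). Kcnj16 lost it without microglia WT replicate 1 or 2 or Olig2+ WT or SgshKO replicate 1 (adjusted p from 0.0515 to 0.0722). The part of sample preparation, which differed between microglia and nuclei, was not tested.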

How the results depend on the processing

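The main counts of called members were 6 start-site and 14 distal peaks (microglia), 70 and 230 (NeuN+), and 16 and 82 (Olig2+). At an adjusted p under 0.01 they were 1, 7, 43, 110, 6 and 44. DESeq2 gave 3, 7, 9, 31, 3 and 23. Scaling to tags in peaks gave 17 and 40 in microglia and 44 at NeuN+ start sites. Median-of-ratios scaling gave 12 and 28 in microglia, a pseudocount of 5 gave 10 and 22, and edgeR 13 and 35. Quantile normalization gave 22 microglia distal and 29 NeuN+ start-site peaks, and cyclic loess, added after seeing the data, 22 and 45. Leaving out the lowest 25% of peaks gave 9 microglia distal and 9 Olig2+ start-site peaks. With the replicate block the microglia counts were 17 and 36 and the other counts stayed within 1.5 times. Whether same-numbered libraries were prepared together is not stated. The correlations of their deviations were 0.0420 in microglia, 0.00361 in NeuN+ and 0.000688 in Olig2+ nuclei. Other splits (higher, lower) under scaling were 7 and 1 at microglia start sites with quantile normalization and cyclic loess, 22 and 39 in Olig2+ distal peaks with quantile normalization, and 9 and 14 with DESeq2. Leaving out 1 library gave, in the same order, limma counts of 0 to 21, 0 to 55, 0 to 37, 0 to 96, 7 to 16 and 32 to 85, and edgeR counts (added after seeing the data) of 5 to 22, 8 to 53, 25 to 33, 129 to 164, 10 to 13 and 49 to 60, with 30 NeuN+ start-site peaks without SgshKO replicate 1, and 50 and 52 Olig2+ distal peaks without WT replicate 2 and SgshKO replicate 2. Without NeuN+ SgshKO replicate 1 or 2 limma called 0 peaks in the whole NeuN+ table, with 33265 and 32556 at an unadjusted p under 0.05, while edgeR called 19964 and 18320.
Matched peaks called between WT microglia and NeuN+ nuclei numbered 56, and 31 at a reciprocal overlap of 80% and 33 when paired in all 3 tables. For WT microglia and Olig2+ nuclei these were 48 and 19 at 80%, and for WT NeuN+ and Olig2+ nuclei 94, 54 at 80% and 36 in all 3 tables. Differences of genotype change numbered 26 for microglia and NeuN+ nuclei, with 15 scaled to tags in peaks, 15 with median-of-ratios, 14 with quantile normalization (4 positive, 10 negative) and 17 at 80%. They numbered 9 for microglia and Olig2+ nuclei, with 3 at 80% and 9 positive and 2 negative scaled to tags in peaks. They numbered 41 for NeuN+ and Olig2+ nuclei, with 27 under quantile normalization (16 and 11), 24 at 80% and 12 in all 3 tables. Leaving out 1 library gave 43 to 64, 36 to 51 and 76 to 94 WT differences and 12 to 38, 2 to 17 and 29 to 40 differences of change. The WT splits (higher, lower) for NeuN+ nuclei against microglia were 32 and 21 with median-of-ratios and 42 and 18 with quantile normalization, and for Olig2+ nuclei against microglia 13 and 24, and 15 and 20. Of the alternatives for named peaks, 1344 kept their direction and side of the threshold, 208 lost the call, 38 gained one and 2 reversed: the uncalled Kcnt1 start-site peak in microglia was 0.215 with limma and 0.065 with edgeR without SgshKO replicate 2, and -2.824 with limma without SgshKO replicate 1. With 17 to 39 reads at a median peak, small changes of low peaks were not detectable.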
